A study of Mus musculus with 9 samples.

Results

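The magnesium channel gene Trpm6 and 9 other genes of cellular magnesium handling were followed in CD8+ T cells of the mouse, which recognise and destroy virus-infected and tumour cells. The 10 genes were picked by symbol from the 24391 genes listed, with the difference between treated and untreated cells already known for Trpm6, so that difference is described here and carries no test. Total RNA had been sequenced from cells activated for 72 h in medium with interleukin 2 at 100 U/mL. In 4 libraries (LSD1i) an inhibitor of the histone demethylase LSD1 had been present during activation, and 5 libraries (NT) came from cells left untreated. The labels name neither the compound nor its dose, and give no mouse strain, sex or age and no genetic change in either group. They number the replicates without saying that each came from its own animal or culture, so the spread between libraries may be technical.

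Magnesium is bound to ATP and to the enzymes that use it, and T cell activation is known to need it. TRPM6 and TRPM7 are channels that carry a kinase at their end. TRPM6 is best known from the gut and the distal tubule of the kidney, where it takes up magnesium, while TRPM7 is made by nearly all cells and can join TRPM6 in 1 channel. CNNM proteins and SLC41A1 are linked to the export of magnesium, MRS2 is the magnesium channel of the inner mitochondrial membrane, and MAGT1 is a subunit of the oligosaccharyltransferase that adds sugars to new proteins, first described as a magnesium transporter.

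The 250 bases before the RefSeq start of Trpm6 and of its closest relative Trpm7 are shown first because the genes differ in the results below. They are read 5′ to 3′ on the strand of the gene in build GRCm38.p6, as chr19:18749480-18749729 (plus strand) and chr2:126876262-126876511 (minus strand), and capitals mark CpG dinucleotides.
Trpm6: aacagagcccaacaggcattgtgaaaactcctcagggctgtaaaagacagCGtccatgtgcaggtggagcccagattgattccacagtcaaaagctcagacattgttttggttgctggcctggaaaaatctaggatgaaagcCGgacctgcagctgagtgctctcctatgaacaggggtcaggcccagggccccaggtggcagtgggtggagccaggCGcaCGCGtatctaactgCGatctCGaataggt
Trpm7: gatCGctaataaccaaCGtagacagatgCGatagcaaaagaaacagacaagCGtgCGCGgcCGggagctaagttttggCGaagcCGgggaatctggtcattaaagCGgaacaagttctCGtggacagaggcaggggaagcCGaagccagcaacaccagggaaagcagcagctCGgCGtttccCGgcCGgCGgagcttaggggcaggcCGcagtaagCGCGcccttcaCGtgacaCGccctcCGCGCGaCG
Trpm6 had 7 and Trpm7 26 CpG dinucleotides in these stretches. In the whole RefSeq windows, which run 50 bases past the start and were found for 9 of the 10 genes (Mrs2 was not among them), Trpm6 had 9 CpG dinucleotides and Slc41a3 had 8. The other 7 genes had between 19 and 42, and the median over all 32851 windows was 7. Letters were searched on both strands. AATC, the core bound by the transcriptional repressor GFI1, occurred 4 times in the Trpm6 window, 3 times in Magt1, 2 times in Cnnm2, once each in Trpm7, Cnnm3, Slc41a1 and Slc41a2, and 0 times in Cnnm4 and Slc41a3. Of all windows, 73.1% held this core and 10.1% held it at least 4 times. The longer GFI1 sequence TAAATCAC, which contains that core, and the letters TGTGGT (RUNX), CCGGAAGT (ETS) and TGACTCA (AP-1) occurred in 0 of the 9 windows, against 0.578%, 16.8%, 3.89% and 5.20% of all windows. These matches describe letters only.

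The libraries held 15163983 to 29245278 raw reads in genes. The deposited raw and batch-corrected tables give opposite group names to 4 libraries, replicates 1 and 2 of both groups, and the same names to the other 5. Libraries were paired between the tables by their genes without reads, and each pair differed at 0 genes. All values below carry the names of the batch-corrected table unless the raw table is named, and the labels do not say which names are right. The cells showed their defining genes, with all 7 CD8 T cell markers tested and their summed level at 1963 to 2011 CPM (counts scaled to library size) in LSD1i and 1732 to 1919 CPM in NT. Of these Cd8a, the alpha chain of the CD8 coreceptor, was higher in LSD1i (484 ± 20.6 CPM in LSD1i and 373 ± 29.9 CPM in NT, log2 fold change 0.38 ± 0.08, adjusted p = 0.0266 in edgeR). The beta chain gene Cd8b1 also had separate ranges, at 312 to 343 CPM in LSD1i and 232 to 289 CPM in NT, and did not pass (adjusted p = 0.104 in edgeR). Kdm1a, which encodes LSD1, averaged 119.6 ± 5.77 CPM in LSD1i (SD, n = 4) and 126 ± 13.1 in NT (SD, n = 5). A drug against the protein need not change this level.

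Trpm6 RNA was near the limit of detection in untreated cells and present in every treated library. It had 285, 364, 403 and 595 raw reads in LSD1i 1 to LSD1i 4, against 3, 0, 0, 3 and 5 in NT 1 to NT 5. In the batch-corrected table, scaled to library size, these were 19.2, 23.6, 20.2 and 23.5 CPM in LSD1i and 0.152, 0, 0, 0.159 and 0.222 CPM in NT. All treated libraries lay far above all untreated ones. The treated ones differed little among themselves only after the batch correction. From raw counts LSD1i 1 to LSD1i 4 had 14.9, 17.7, 23.6 and 28.1 CPM, lower in replicates 1 and 2. The means of the corrected values were 21.6 ± 2.25 CPM in LSD1i (SD, n = 4) and 0.107 ± 0.101 CPM in NT (SD, n = 5). The log2 fold change of LSD1i over NT was 7.48 ± 0.32 (standard error, SE) in the fit of all genes by edgeR's quasi-likelihood method. It was the highest of 11981 genes tested. The SE is worked back from edgeR's F score and is too small for Trpm6, which had 11 raw reads in NT. The counting interval that follows is wider than this SE allows. Summed over libraries, 1647 raw reads in LSD1i stood against 11 in NT, a ratio of 204 after scaling, with an exact 95% interval of 114 to 410 that covers counting error only. In NT 2 and NT 3, where 0 reads were seen, a count of 0 allows up to 3 reads, or 0.187 and 0.142 CPM. In RNA from whole cultures, more cells that make a transcript and more transcript per cell cannot be told apart.

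**Figure D1:**
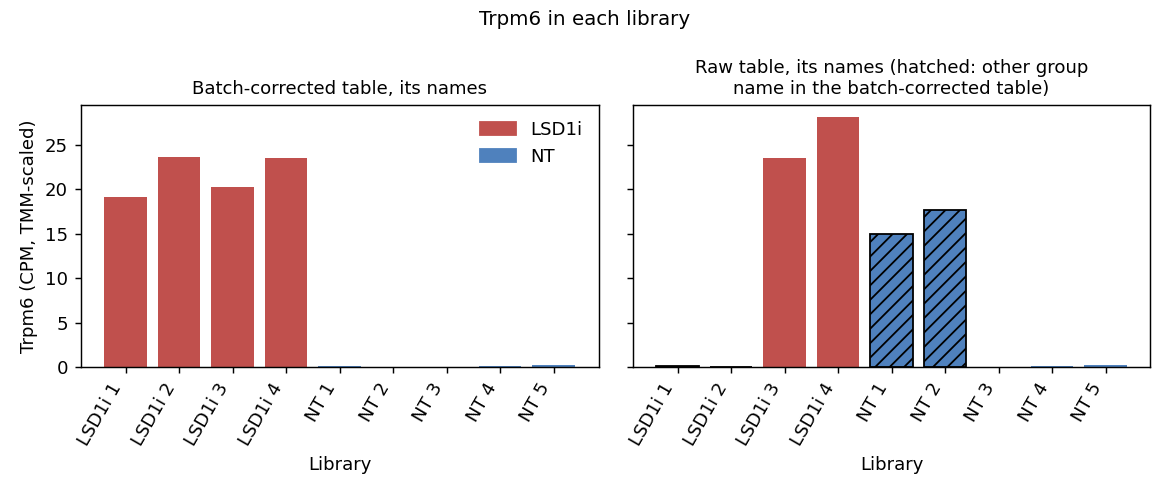
Trpm6 in CPM (y axis) by library (x axis), LSD1i red and NT blue; the left panel uses the batch-corrected counts with their names and the right panel the raw counts with the names of the raw table. On the left the LSD1i bars lie between 19.2 and 23.6 CPM and no NT bar passes 0.222; on the right the hatched bars named NT 1 and NT 2 lie at 14.9 and 17.7 CPM, while those named LSD1i 1 and LSD1i 2 are at 0.106 and 0.

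The separation follows the names. With the names of the raw table, Trpm6 had 3, 0, 403 and 595 reads in LSD1i and 285, 364, 0, 3 and 5 in NT, and its log2 fold change was 0.97, without a call. In each set of replicates taken alone, raw counts with the batch-corrected names gave 7.59 ± 0.42 in replicates 3 to 5 and 7.79 ± 0.53 in replicates 1 and 2 (SE). Few reads fell in NT, so these SEs are too small and the sizes cannot be compared closely. Trpm6 was chosen by this difference in the same libraries, so finding it in subsets of them adds no support. The replicates 3 to 5 are named alike in both tables, so for them the difference does not rest on the choice of names. In the authors' deposited table Trpm6 had a log2 fold change of 7.49, ranked first of 20052 genes and was marked UP. That comparison is of the same libraries and is no second source. The fit here with no filter on low counts also gave 7.49. The other 9 genes were marked NS in the authors' deposited table, which marks 94 genes UP and 44 DOWN.

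Because Trpm6 is best known from epithelia, 12 markers of kidney tubule and gut epithelium were examined beside it. Their summed level was 3.10 to 3.86 CPM in LSD1i and 4.12 to 6.11 CPM in NT. Epcam, an epithelial adhesion molecule that some lymphocytes also make, gave most of this sum, with 2.84 to 3.20 CPM in LSD1i and 3.52 to 5.73 CPM in NT. Its ranges were separate and it did not pass (adjusted p = 0.171 in edgeR). Of the other 11 markers, Slc12a3, the sodium chloride cotransporter of the distal tubule, and the cadherin gene Cdh1 had at most 8 counts in any library, 8 more had at most 5, and Krt8 was at 0. CD4 T cell markers summed to 39.4 to 46.9 CPM in LSD1i and 28.4 to 46.5 in NT, nearly all of it Zbtb7b (41.8 CPM in LSD1i, 38.1 in NT), while Cd4 itself averaged 0.095 CPM in LSD1i and 0.131 in NT. B cell markers summed to 8.08 to 9.38 CPM in LSD1i and 11.1 to 12.4 in NT, myeloid markers to 6.50 to 9.66 in LSD1i and 5.92 to 9.42 in NT, and NK markers to 352 to 388 in LSD1i and 329 to 423 in NT. Single genes made up most of these sums too, Cd79b, Cd68 and Nkg7, the last of which CD8 T cells also make; the NK genes Ncr1 and Klra8 were at 0. Of these lists the B cell gene Cd79b was lower in LSD1i (log2 fold change −0.43 ± 0.09, adjusted p = 0.0317 in edgeR) and Cd40lg of the CD4 list was higher (3.58 ± 0.54, adjusted p = 0.00295 in edgeR). Cd40lg was low, at 0.877 to 1.56 CPM in LSD1i and 0 to 0.267 CPM in NT, with at most 33 counts in any library. The part of these marker genes in the Trpm6 result was not tested.

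Trpm7, the relative of Trpm6 that nearly all cells make, was abundant in both groups. It had 96.8, 97.9, 115 and 97.4 CPM in LSD1i and 142, 99.98, 109, 128 and 95.5 CPM in NT. The ranges overlapped, and the highest value was that of NT 1. The log2 fold change was −0.17 ± 0.12. Per kb of exon, which allows levels of different genes to be compared, Trpm6 stood at 21.6%, 26.3%, 19.2% and 26.3% of Trpm7 in LSD1i 1 to LSD1i 4, against 0.117%, 0%, 0%, 0.135% and 0.254% in NT 1 to NT 5. Even in treated cells Trpm6 RNA was thus the rarer of the pair. As a share of the summed per-kb level of the 10 genes, Trpm6 made up 4.205% to 5.45% in LSD1i and 0% to 0.0492% in NT.

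Among all 10 genes, Magt1 had the highest level per kb in both groups, 28.0 ± 0.784 CPM per kb in LSD1i (SD, n = 4) and 27.6 ± 3.06 in NT (SD, n = 5). Trpm7 came next with 14.3 ± 1.27 in LSD1i and 16.2 ± 2.76 in NT, then Slc41a1 with 7.83 ± 1.05 in LSD1i and 6.03 ± 1.21 in NT. The levels of Cnnm4 (4.69 in LSD1i, 4.52 in NT) and Mrs2 (4.499 in LSD1i, 4.54 in NT) were not separated in either group. Cnnm3 followed with 2.71 in LSD1i and 2.80 in NT, and Slc41a2 (1.92 in LSD1i, 1.43 in NT) and Cnnm2 (1.71 in LSD1i, 1.81 in NT) overlapped each other in both; in LSD1i the ranges of Cnnm3 and Slc41a2 overlapped too. Slc41a3 was low, with 0.579 in LSD1i and 0.560 in NT. Trpm6 changed its place in this order, standing sixth in LSD1i with 3.32 ± 0.346 CPM per kb, between Mrs2 and Cnnm3 and apart from both, and last in NT with 0.0164 ± 0.0155. In NT the ranges of Slc41a1 and Mrs2 also overlapped. The lengths are unions of exons in the GENCODE M21 basic set, so this order depends on that annotation.

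**Figure D2:**
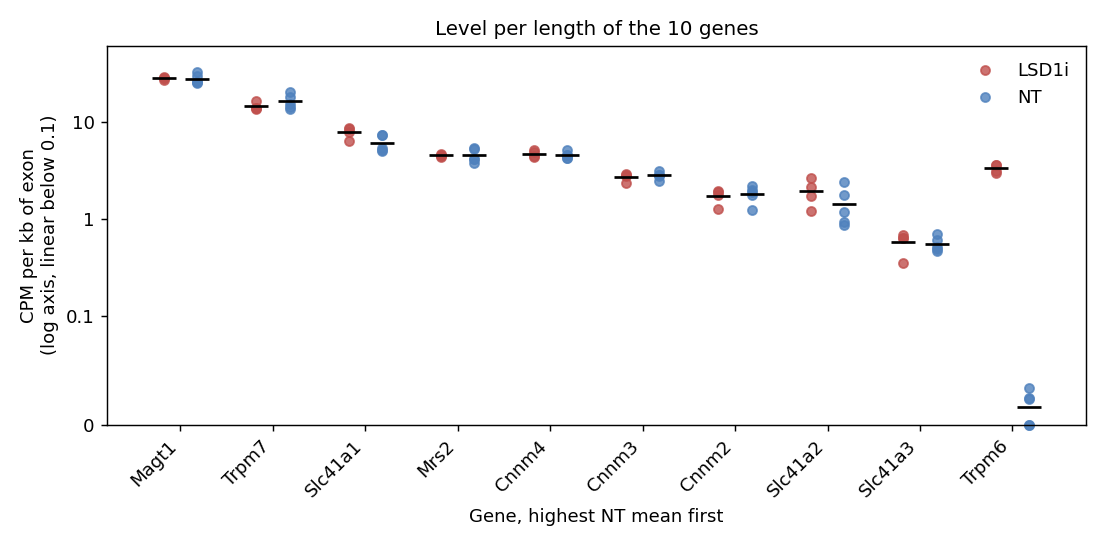
Level per length of the 10 genes in CPM per kb of exon (y axis, logarithmic above 0.1), 1 point per library with LSD1i red and NT blue and the mean as a bar. Magt1 and Trpm7 are highest in both groups, and only the points of Trpm6 are apart, at 2.94 to 3.62 in LSD1i and 0 to 0.0342 in NT.

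Of the 10 genes, 1 (Trpm6) passed an adjusted p of 0.05 in the fit of all genes, higher in LSD1i, and 9 did not. Of all 11981 tested genes 3.31% passed, 2.15% higher and 1.16% lower, and nothing is read from the members' count because the contrast helped to choose them. The LSD1i and NT ranges were separate for 1 of the 10 genes, again Trpm6 with LSD1i above NT, and for 7.86% of all tested genes (4.41% with LSD1i above). The other 9 log2 fold changes ran from −0.17 (Trpm7) to 0.41 (Slc41a2) with a median of 0.02, and 5 were above 0 and 4 below. The median over all tested genes was −0.02.

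The exporter gene Slc41a1, a sodium-dependent magnesium carrier, was the next in size of effect relative to its error. It had 40.7, 29.7, 37.2 and 39.4 CPM in LSD1i and 34.6, 24.9, 23.97, 23.6 and 34.4 CPM in NT. In 3 of the 4 treated libraries it lay above every untreated one, while LSD1i 2 fell inside the NT range. The means were 36.8 ± 4.91 CPM in LSD1i (SD, n = 4) and 28.3 ± 5.69 CPM in NT (SD, n = 5), a log2 fold change of 0.37 ± 0.15 (SE). Its relative Slc41a2 had 8.11, 5.67, 12.6 and 10.1 CPM in LSD1i and 11.5, 5.54, 4.07, 4.39 and 8.32 CPM in NT. This was the most variable of the 9 genes, with a coefficient of variation of 32.2% in LSD1i and 46.2% in NT, and the groups overlapped widely (0.41 ± 0.32). Slc41a3, of the same family, was at 1.88, 1.03, 1.99 and 1.84 CPM in LSD1i and 2.06, 1.78, 1.52, 1.37 and 1.42 CPM in NT. It rested on 16 to 55 raw reads a library and showed no separation (0.04 ± 0.22).

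The CNNM genes encode membrane proteins with a cyclin M domain. Cnnm4, known from the gut, averaged 21.3 ± 1.66 CPM in LSD1i (SD, n = 4) and 20.5 ± 1.59 CPM in NT (SD, n = 5), a log2 fold change of 0.05 ± 0.09. Cnnm3, its neighbour on chromosome 1 with 0 protein-coding genes between them, averaged 14.3 ± 1.25 CPM in LSD1i and 14.8 ± 1.23 CPM in NT (−0.05 ± 0.10). Cnnm2, the family member known from kidney magnesium wasting in humans, had 8.67, 6.24, 9.71 and 9.35 CPM in LSD1i and 10.7, 9.42, 8.76, 9.78 and 6.10 CPM in NT. All of these ranges overlapped, and the fold change of Cnnm2 was −0.08 ± 0.18. Magt1 had 127.1, 131, 127 and 123 CPM in LSD1i and 114, 134, 115, 117 and 145 CPM in NT. Mrs2 had 32.9, 30.3, 32.1 and 31.4 CPM in LSD1i and 38.2, 26.6, 29.1, 29.1 and 36.8 CPM in NT. For both, the treated libraries lay inside the range of the untreated ones, with log2 fold changes of 0.02 ± 0.09 for Magt1 and −0.02 ± 0.12 for Mrs2. Their coefficients of variation were 2.80% in LSD1i and 11.1% in NT for Magt1, and 3.50% in LSD1i and 16.1% in NT for Mrs2.

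The libraries of replicates 1 and 2 and those of replicates 3 to 5 were shifted in opposite directions by the deposited batch correction, and the labels give no batch. Before correction, Cnnm3 had 20.1 CPM on average in replicates 1 and 2 and 10.8 in replicates 3 to 5, and Cnnm4 had 28.0 and 15.7. For both genes the lowest library of the first set (16.4 and 27.2 CPM) lay above the highest of the second (11.1 and 18.5 CPM). The gap was 0.89 for Cnnm3 and 0.83 for Cnnm4 on the log2 scale, and 9.06% and 10.7% of tested genes had a larger one. Slc41a1 was likewise higher in replicates 1 and 2 (gap 0.59), while Slc41a2 (−0.75) and Trpm7 (−0.48) were lower there, against a median size of 0.33 over all tested genes. After correction these gaps were 0.01, 0.02, 0.04, 0.04 and −0.01. That removal is what the correction was built for and is no finding. The main fit used corrected counts with no term for this shift. Its SEs and adjusted p-values, and the SDs of corrected values, can therefore be too small for every gene named here.

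**Figure D3:**
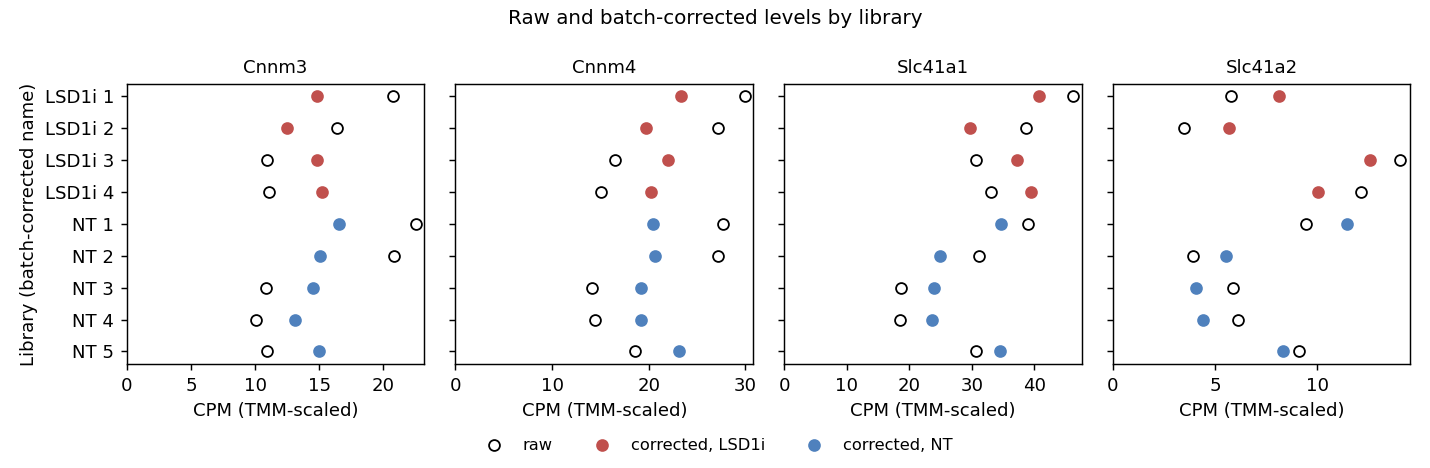
Raw (open) and batch-corrected (filled, LSD1i red and NT blue) levels in CPM (x axis) of Cnnm3, Cnnm4, Slc41a1 and Slc41a2 in each library (y axis, batch-corrected names). For Cnnm3 the open points of replicates 1 and 2 lie at 16.4 to 22.6 CPM and those of replicates 3 to 5 at 10.1 to 11.1, while the filled points of all libraries lie between 12.5 and 16.5.

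Whether the difference between LSD1i and NT was of one size in both sets of replicates was not used to choose the genes and could be tested, on raw counts with the batch-corrected names. Trpm6 gave a difference of −0.22 ± 1.19 (replicates 3 to 5 minus replicates 1 and 2, log2 scale, SE), with an adjusted p of 0.958 in edgeR. The error is wide because so few reads fell in the untreated libraries, so a moderate difference would not have been detectable. Leaving out 1 library moved it between −3.73 (without NT 1) and 0.53 (without NT 5), with no call in any of these fits. The furthest apart was Slc41a2, with fold changes of 0.90 ± 0.23 in replicates 3 to 5 and −0.58 ± 0.47 in replicates 1 and 2. The difference of 1.45 ± 0.54 did not pass (adjusted p = 0.764 in edgeR, unadjusted 0.0224), though it did without NT 2 (adjusted p = 0.0481) and with no filter on low counts (0.00524), and the difference was 0.66 without NT 1 (adjusted p = 0.99991). Cnnm2 (0.27 in replicates 3 to 5, −0.40 in replicates 1 and 2) and Slc41a3 (0.33 and −0.55 in that order) also had opposite signs in the sets, with adjusted p = 0.764 for both differences in edgeR. By edgeR 0 of 11916 genes passed this test, a share of 0%, and 581 (4.88%) had an unadjusted p under 0.05; no other tool was run for it.

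**Figure D4:**
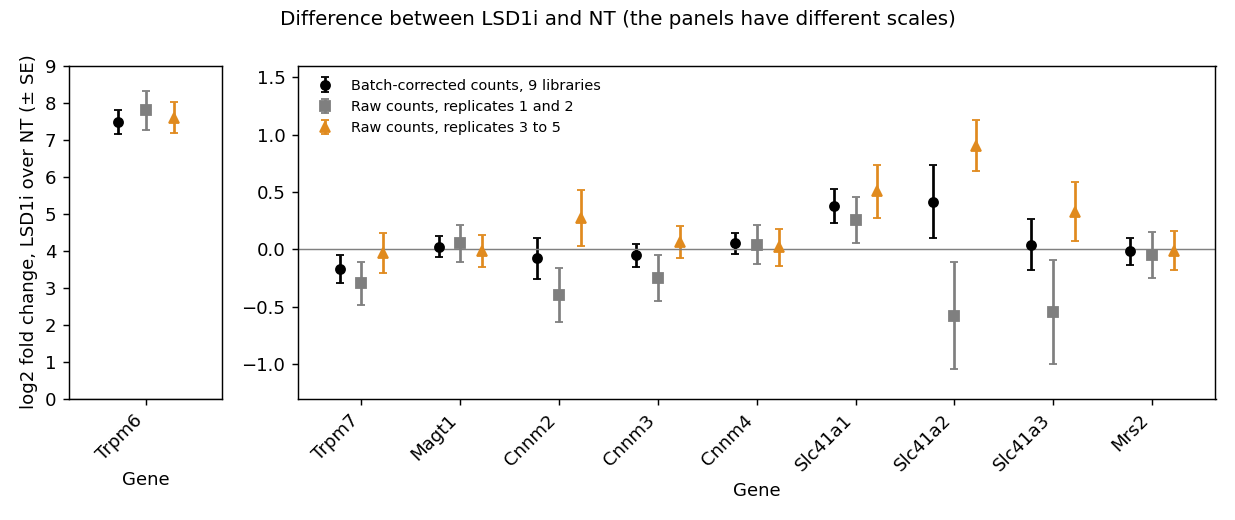
Log2 fold change of LSD1i over NT (y axis, ± SE) of each gene (x axis), from batch-corrected counts of 9 libraries (black), raw counts of replicates 1 and 2 (grey) and raw counts of replicates 3 to 5 (orange). Trpm6, on its own scale, lies at 7.48, 7.79 and 7.59, and the other genes lie between −0.58 and 0.90. The SE bars of Trpm6 understate its error, as few reads fell in NT.

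Genes around the members were tested in the same fit, with p adjusted over all 11981 genes. Of all these genes, 397 passed in edgeR, 1744 had an unadjusted p under 0.05 in edgeR and DESeq2 called 667. Of 7 tested further genes of magnesium transport, 0 rose and 0 fell by edgeR, 0 had an unadjusted p under 0.05 and DESeq2 called 0, with a median log2 fold change of −0.03. The smallest p-values were those of Mmgt2 (−0.14 ± 0.10, adjusted p = 0.607 in edgeR), Mmgt1 (0.10 ± 0.10) and Nipal1 (0.17 ± 0.18). Of 9 tested regulators and partners of the members, 0 passed in edgeR or DESeq2 and 2 had an unadjusted p under 0.05 in edgeR (median −0.08). Arl15, a small GTPase that binds CNNM proteins, had separate ranges, at 3.70 to 5.11 CPM in LSD1i and 5.35 to 6.10 CPM in NT (−0.30 ± 0.13, adjusted p = 0.299751 in edgeR). Egfr, the receptor for epidermal growth factor, a hormone that stimulates TRPM6 in the kidney, was at 1.08 CPM in LSD1i and 1.64 CPM in NT (−0.60 ± 0.26), and Msrb1, a methionine sulfoxide reductase, was at 0.23 ± 0.11. Of the 9 oligosaccharyltransferase genes, whose products include the partners of MAGT1, 0 passed in edgeR or DESeq2 and 0 had an unadjusted p under 0.05 in edgeR, with a median of 0.02. Dad1 (0.20 ± 0.11), Tmem258 (0.13 ± 0.12) and Ddost (−0.08 ± 0.09) had the smallest p-values of these.

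Among the other TRP channels 25 were listed, 14 of them with at most 5 counts in any library, and 8 could be tested. Of these 1 rose and 0 fell by edgeR, and DESeq2 called a further one, Trpm1, as lower (adjusted p = 0.0299). Trpv2, a cation channel found in lymphocytes and macrophages, had 123, 121, 123 and 116 CPM in LSD1i and 76.1, 76.9, 76.0, 76.3 and 79.2 CPM in NT. After correction the groups were far apart relative to the spread within them, and the log2 fold change was 0.65 ± 0.06 (adjusted p = 0.000207 in edgeR). It was 0.68 (adjusted p = 0.00113 in edgeR) with raw counts, batch-corrected names and the replicate set as a term. With raw counts of replicates 3 to 5 alone it was 0.65 (adjusted p = 0.0364) and with those of replicates 1 and 2 alone 0.71 (adjusted p = 0.407). Trpm1 had 1.58 to 2.63 CPM in LSD1i and 2.82 to 4.76 CPM in NT (−0.75 ± 0.21), and the endolysosomal channel gene Mcoln3 had 1.19 to 1.601 CPM in LSD1i and 0.634 to 1.07 CPM in NT (0.70 ± 0.20). Both had separate ranges and did not pass (adjusted p = 0.0817 and 0.101 in edgeR), though Trpm1 did without NT 1 (adjusted p = 0.0485). The median of the 8 was 0.12. Of 3 tested relatives of the kinase part of TRPM6 and TRPM7, 0 passed in edgeR or DESeq2 and 1 (Alpk2) had an unadjusted p under 0.05 in edgeR, with Alpk2 at −0.58 ± 0.19, Alpk1 at −0.42 ± 0.26 and Eef2k, the kinase of elongation factor 2, at 0.04 ± 0.09.

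Of 17 genes of calcium entry and extrusion 0 rose and 1 fell, with a median of −0.04. P2rx7, an ATP-gated cation channel, had 0.497, 0.206, 0.176 and 0.236 CPM in LSD1i and 0.648, 1.58, 1.04, 0.793 and 2.85 CPM in NT. The groups were separate but the levels were low, at 3 to 9 counts in LSD1i and 15 to 64 in NT. The log2 fold change was −2.29 ± 0.54 (adjusted p = 0.0427 in edgeR), and the call was lost in 7 of 9 fits that left out 1 library (adjusted p up to 0.143, without LSD1i 4). It was also lost with raw counts and the replicate set as a term (0.0915), with the replicate block on batch-corrected counts (0.0735) and with raw counts of the 5 libraries named alike (0.213). P2rx4, of the same family, had barely separate ranges, at 10.86 to 13.87 CPM in LSD1i and 13.90 to 17.22 CPM in NT. It did not pass (−0.33 ± 0.11, adjusted p = 0.154 in edgeR), nor did Itpr1, a calcium release channel (−0.25 ± 0.10). Orai1 and Stim1, the pore and the sensor of store-operated calcium entry, were at 0.18 ± 0.09 and −0.04 ± 0.12.

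**Figure D5:**
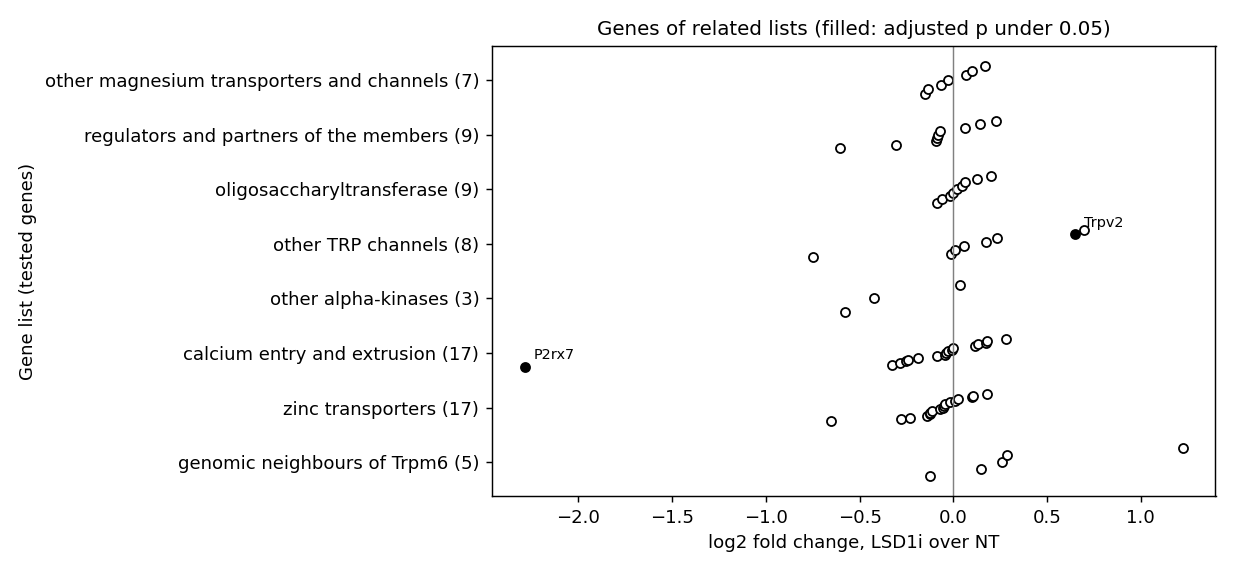
Log2 fold change of LSD1i over NT (x axis) for each tested gene of the related lists (y axis, number tested in brackets); filled points passed an adjusted p of 0.05. Only Trpv2 at 0.65 and P2rx7 at −2.29 are filled.

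The genes that lie next to Trpm6 on chromosome 19 were examined, as the 5 nearest protein-coding genes on either side in the RefSeq table. Of these 10 genes 5 could be tested, and by edgeR 0 rose and 0 fell, with 2 at an unadjusted p under 0.05, while DESeq2 called 1, Ostf1 (adjusted p = 0.00852). Ostf1, which encodes an osteoclast stimulating factor, had 440, 455, 432 and 462 CPM in LSD1i and 359, 378, 413, 344 and 337 CPM in NT. Anxa1, encoding annexin A1, had 1.21, 0.619, 0.585 and 1.46 CPM in LSD1i and 0.381, 0.527, 0.284, 0.476 and 0.445 CPM in NT. Both had separate ranges, all treated libraries being higher. Of all 11981 tested genes, 7.86% had separate ranges (4.41% with LSD1i above) and 1744 had an unadjusted p under 0.05 in edgeR. Anxa1 rested on 10 to 31 counts in LSD1i and 6 to 10 in NT. Ostf1 (0.29 ± 0.08, adjusted p = 0.0817) and Anxa1 (1.22 ± 0.34, adjusted p = 0.0791) did not pass in edgeR. D030056L22Rik (0.26 ± 0.13), Nmrk1 (0.15 ± 0.10) and Carnmt1, listed as 2410127L17Rik (−0.12 ± 0.15), did not pass either. Rorb, Pcsk5, Aldh1a7 and Tmc1 had too few reads to test, and Aldh1a1 was at 0 in all libraries. RefSeq places the snRNA gene Gm23238 and the lncRNA gene Gm41814 inside the bounds of Trpm6, and counting is not stated to use strand, so reads of overlapping genes cannot be told apart.

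Among the 8 genes whose levels followed Trpm6 most closely over the 9 libraries, by Pearson correlation of log2 CPM among 9879 genes whose log2 CPM averaged 2 or more, were Cdc42bpb (r = 0.996), Crybg3 (0.988), Armcx2 (0.988), Icos (0.987), Rgmb (0.986), Pld4 (0.986) and Trpv2 (0.986). The measure mostly reflects the split into 4 high and 5 low libraries, and by Spearman correlation 0 of the 8 were among the 8 closest. The 7 genes named here had separate ranges and were higher in LSD1i. Choosing them by likeness to Trpm6 favours this, so nothing is read from it. Of all tested genes, 4.41% had separate ranges with LSD1i above. Crybg3 averaged 15.4 ± 1.10 CPM in LSD1i (SD, n = 4) and 7.26 ± 0.514 CPM in NT (SD, n = 5). Pld4, an exonuclease of endolysosomes, averaged 8.22 ± 1.57 CPM in LSD1i and 1.23 ± 0.105 CPM in NT. Most opposite were Galnt10 (r = −0.962), an enzyme that starts O-glycans, 2310057M21Rik (−0.959) and the tetraspanin gene Tspan32 (−0.959). Galnt10 averaged 5.73 ± 0.498 CPM in LSD1i and 13.1 ± 1.76 CPM in NT, and Tspan32 averaged 17.2 ± 2.07 CPM in LSD1i and 28.9 ± 1.35 CPM in NT. 2310057M21Rik differed little in size (log2 fold change −0.18 ± 0.08).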

How the data were processed

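Total RNA of 9 libraries was analysed from 3 deposited tables. Per the submitters' processing notes, the authors worked with featureCounts, STAR and edgeR on build mm9, with no version, annotation or strand setting given. The authors deposited raw read counts per gene. They also deposited estimated counts after a batch correction of unstated method; these were whole numbers, and rounding changed nothing. The third file was the authors' deposited table of log2 fold changes and mean log2 CPM, with an F score and p-values, which were not used further except for log2 fold changes and marks.

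Columns were mapped by name, and raw libraries were matched to batch-corrected ones by genes without reads. Genes were fitted with edgeR 4.0.16 (R 4.3.3) by its quasi-likelihood test of LSD1i over NT on batch-corrected counts, with TMM scaling, edgeR's filter (at least 10 reads, total of at least 15) and p-values adjusted by Benjamini-Hochberg over all tested genes at 0.05. The standard error is the size of the fold change, before edgeR shrinks it, over the square root of F. It can be too small where a group has very few reads, as for Trpm6 in NT. The fold changes printed are the shrunken ones. The difference between replicate sets was an interaction term on raw counts. Both fits were tried on simulated counts without a shift between replicate sets, with changes placed only in well expressed genes. This says nothing about the effect of the batch correction or about a gene near 0 in 1 group. Libraries of a group differed beyond the sampling noise of reads (chi-square per degree of freedom at least 7.10). None was therefore treated as a repeat run of another, and each counted as 1. This does not show that each came from its own animal or culture. Alternatives included DESeq2 1.42.0. The members, lists and tests were chosen with earlier results of these data known. Named genes were all members, called genes of each list or otherwise its 3 smallest p-values, neighbours of Trpm6 with a read, and the 8 most and 3 least like Trpm6, of which 1 is not reported here; Orai1, Stim1 and marker genes were named after their values were seen. Promoter sequences come from RefSeq (GRCm38.p6), 300 bases per gene. No coordinates were converted between builds.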

Additional observations from a re-analysis of the deposited data

Results flagged for a closer look

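Of 26 groups of libraries examined (the 10 genes, Kdm1a, Trpv2 and P2rx7 in both conditions), 4 held a library that lay apart from its group, and chance marks about 1 group in 20. Trpm7 was at 115 CPM in LSD1i 3, the highest of its group, with the next at 97.9. Cnnm3 was at 12.5 CPM in LSD1i 2, the lowest of its group, with the next at 14.8. Slc41a3 was at 1.03 CPM in LSD1i 2, again the lowest, with the next at 1.84, and rested on 16 raw reads there. Trpv2 was at 79.2 CPM in NT 5, the highest of the NT libraries, with the next at 76.9.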

How the results depend on the processing

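The fold change of Trpm6 stayed at 7.17 to 7.88 when any 1 library was left out, and with raw counts as named it was 0.97. In 17 of 18 alternative settings it moved by less than the spread between replicates. The count of genes called (397, of which 258 higher and 139 lower) became 667 (400 and 267) with DESeq2, 0 (0 and 0) with raw counts as named, 220 (166 and 54) with raw counts, batch-corrected names and the replicate set as a term, 117 (97 and 20) with raw counts of the 5 libraries named alike, and 8 (8 and 0) with raw counts of replicates 1 and 2. With raw counts as named, 172 genes had an unadjusted p under 0.05. Leaving out 1 library gave 219 to 432 calls, 163 to 303 higher and 56 to 159 lower. The total was more than 1.5 times lower without LSD1i 1 (228), LSD1i 3 (251) or LSD1i 4 (219). The higher calls were likewise fewer without LSD1i 1 (166) or LSD1i 4 (163), and the lower ones without NT 2 (86), NT 3 (87), NT 4 (81), LSD1i 1 (62), LSD1i 3 (63) or LSD1i 4 (56). In the pathway and neighbour lists together, without the marker lists, 2 calls became 4 with DESeq2, 0 with raw counts as named, 1 with raw counts and the replicate set, 1 in the 5 libraries named alike, 0 in replicates 1 and 2, and 1 to 3 without 1 library. The difference between replicate sets, with 0 calls, gave 320 with no filter and 0 to 401 without 1 library, the 401 without NT 2, where that arm held 1 library that is assumed to vary like the others. With raw counts as named, the fold changes of Cdc42bpb (−0.35), Rgmb (−0.051) and 2310057M21Rik (0.0099) changed sign, as did those of 5 of the 10 magnesium genes, Trpm7 (0.03), Cnnm2 (0.29), Cnnm3 (0.25), Magt1 (−0.07) and Mrs2 (0.0029). By Spearman correlation 0 of the 8 genes most like Trpm6 were the same. The causes were not tested.

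Same-numbered libraries of the groups deviated together at correlations of −0.09, 0.23, 0.09 and −0.30, and 0 of the 4 LSD1i libraries correlated best with its own number. Pairing by number was thus not seen in these values. Being 4 correlations without a test, they cannot decide whether same-numbered libraries shared an animal or culture. With the replicate block, 326 genes were called on batch-corrected counts and 352 on raw counts with the batch-corrected names, with 1 and 3 calls in those lists. Trpm6 was at 7.86 in the first of these fits and at 8.06 in the second. Depth limits Trpm6 in NT, P2rx7 in LSD1i, and Slc41a3 and Cd40lg throughout.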

Other observations

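Zinc transporters, another family of metal ion carriers, were set beside the magnesium genes. Of 17 tested members 0 rose and 0 fell in the fit of all genes by edgeR, 2 had an unadjusted p under 0.05, DESeq2 called 0, 5 fold changes were above 0 and 12 below, and the median log2 fold change was −0.05, against −0.02 over all tested genes. Of all 11981 tested genes, 1744 had an unadjusted p under 0.05 in that fit. The smallest p-values of the zinc transporters were those of Slc39a11, Slc30a1 and Slc30a9. Slc39a11, an importer, averaged 15.2 ± 1.24 CPM in LSD1i (SD, n = 4) and 18.5 ± 1.31 CPM in NT (SD, n = 5), with a log2 fold change of −0.28 ± 0.09 (adjusted p = 0.173 in edgeR). Slc30a1, which exports zinc at the plasma membrane, averaged 6.70 ± 1.96 CPM in LSD1i and 10.5 ± 3.06 CPM in NT (−0.65 ± 0.26). Slc30a9 averaged 166 ± 13.3 CPM in LSD1i and 147 ± 12.99 CPM in NT (0.18 ± 0.09). The ranges overlapped for all of these genes. With raw counts, batch-corrected names and the replicate block, Slc30a1 passed (−0.80, adjusted p = 0.0415 in edgeR).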
